A study of Mus musculus with 8 samples.

Results

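The genes described here are those of the mouse major histocompatibility complex (MHC), named H2 in the mouse, together with the genes that load its class I and class II molecules with peptide. Members were the rows of the deposited gene table whose symbol starts with H2-, plus B2m, Tap1, Tap2, Tapbp, Tapbpl, Erap1, Nlrc5, Ciita, Cd74, Canx and Pdia3. This gave 44 of 30445 genes: 33 H2- rows, all on chromosome 17 between 33974659 and 37483552 (mm10), and 11 rows by name. The class I pathway held 31 of them (22 heavy chain rows and 9 genes of loading and transcription) and the class II pathway 12, and H2-Ke6 is not an MHC chain. Hearts of C57 mice had been profiled by poly(A) RNA sequencing 8 weeks after transverse aortic constriction, an operation in which a tie around the aortic arch raises the pressure the left ventricle works against. The groups were 4 libraries labelled Mertk knockdown and 4 wildtype libraries, all from operated hearts, so no heart without constriction was analysed here. The labels do not say how or in which cells Mertk was lowered, nor whether each replicate was a separate mouse, so p-values measure the spread between these libraries, which may in part be technical. The study's title ties macrophage MERTK, a receptor for engulfing dying cells, to the type I interferon response, and the comparison asks how the genes of antigen presentation differed between the groups.

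MHC class I molecules sit on almost all nucleated cells. Each is a heavy chain joined to beta-2 microglobulin, and it shows peptides cut by the proteasome to CD8 T cells and natural killer cells. The peptides are pumped into the endoplasmic reticulum by the TAP transporter, trimmed there and fitted to the heavy chain by a loading complex. MHC class II molecules are found chiefly on dendritic cells, B cells and macrophages, and show peptides of engulfed material to CD4 T cells. Interferons raise both pathways, class I in part through NLRC5 and class II through CIITA.

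Total counts ran from 63378755 to 68762911 in the labelled knockdown libraries and from 59287621 to 71571173 in the wildtype libraries. Mertk itself was at 12.8, 12.3, 10.6 and 11.8 CPM (reads of a gene relative to the TMM-scaled library size) in the labelled knockdown libraries, against 11.02, 10.4, 10.5 and 12.3 CPM in wildtype. Its log2 fold change, labelled knockdown minus wildtype as throughout, was 0.10 (SE 0.11, edgeR adjusted p = 0.766), so the targeted gene was not lower and each direction below is that of the labels. All 6 cardiomyocyte markers were detected, with summed levels of 36568 to 41357 CPM in the labelled knockdown libraries and 24353 to 34797 CPM in wildtype. Myh6 was the largest part of these sums, with means of 18093 CPM in the labelled knockdown libraries and 10816 CPM in wildtype. In log2 fold change 5 of the 6 were above 0, 1 was below and 0 were called by edgeR. At an unadjusted edgeR p under 0.05, 2 were higher, against 6.11% of all genes. Hepatocyte transcripts summed to 166 to 253 CPM in the 4 labelled knockdown libraries, against 246 CPM in wildtype replicate 1 and 9.52 to 16.95 CPM in wildtype replicates 2 to 4. Atrial markers summed to 606 CPM in labelled knockdown replicate 4, against 339 and 201 CPM in wildtype replicates 3 and 4, and to 1.003 to 3.71 CPM in the other 5 libraries.

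Class I pathway genes lay mostly below 0 in log2 fold change, while few of them passed the test over all genes. Of the 44 members, 34 had enough counts to be tested: 24 of the class I pathway, 9 of the class II pathway and H2-Ke6. By edgeR, 2 class I pathway genes fell (H2-T23 and H2-Q4), 0 rose, and 0 class II pathway genes passed in either direction. Over all 17787 tested genes 0.647% passed, 0.371% lower and 0.275% higher. Below 0 were 22 of the 24 class I pathway genes (median −0.65) and 7 of the 9 class II pathway genes (median −0.29), against 50.1% of all genes (median 0.00). For 13 of the 24 class I pathway genes all 4 labelled knockdown libraries lay below all 4 wildtype libraries, against 3.90% of all genes, and this was so for 0 of the 9 class II pathway genes. The opposite, without overlap and higher, was seen for 0 of either pathway and 4.18% of all genes. At an unadjusted p under 0.05, 17 class I and 2 class II pathway genes were lower, against 6.32% of all genes, and 0 were higher, against 6.11%. The 2 classes were not tested against each other.

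**Figure D1:**
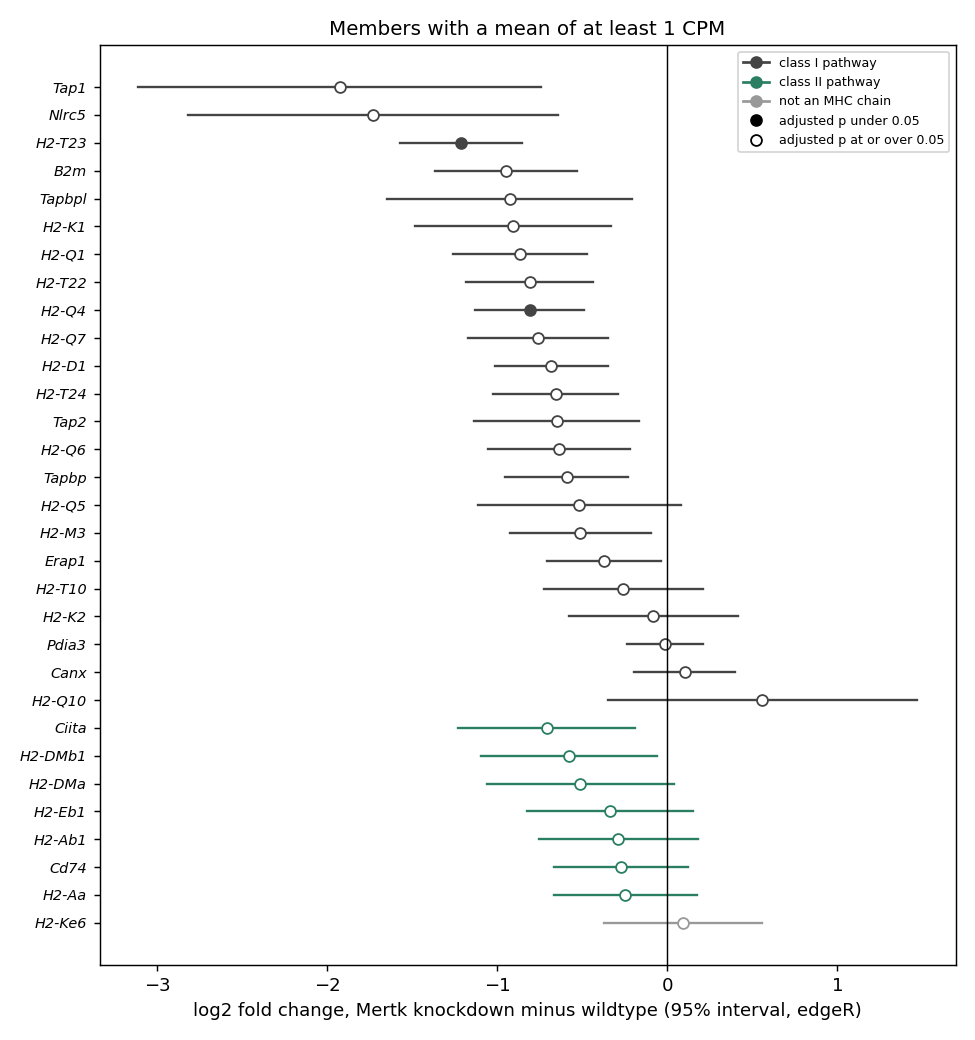
Log2 fold change (labelled Mertk knockdown minus wildtype, x axis) with its 95% interval from edgeR for the 31 members with a mean of at least 1 CPM, class I pathway at the top, then class II pathway, then H2-Ke6. Filled points mark H2-T23 and H2-Q4, the members with an adjusted p under 0.05; the intervals of Tap1 and Nlrc5 are the widest of the class I pathway, and the class II points lie between −0.71 and −0.25.

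The member with the smallest adjusted p was H2-T23 (ENSMUSG00000067212, chromosome 17, 36029773 to 36032855, minus strand), the heavy chain of Qa-1, a non-classical class I molecule that presents leader peptides of other class I chains to the CD94/NKG2 receptors of natural killer cells. It was at 19.6, 21.7, 26.4 and 23.5 CPM in the labelled knockdown libraries, against 46.2, 59.6, 40.0 and 65.5 CPM in wildtype. The groups did not overlap, and the labelled knockdown libraries were the more uniform. H2-T23 was 2.32-fold lower (log2 fold change −1.21, SE 0.16, edgeR adjusted p = 0.0129). H2-T23 stayed called without any 1 library (adjusted p from 0.00778 to 0.0482), but its call was lost among the 5 libraries with hepatocyte transcripts (−1.01, adjusted p = 0.0786), with the hepatocyte score as a covariate (−0.97, adjusted p = 0.258) and among the 5 libraries without atrial markers (−1.22, adjusted p = 0.145).

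H2-Q4 (ENSMUSG00000035929, chromosome 17, 35379617 to 35385290, plus strand), a class I heavy chain gene of the Q region, also fell. Its levels were 35.6, 39.2, 51.7 and 54.4 CPM in the labelled knockdown libraries, against 81.9, 82.5, 68.8 and 83.9 CPM in wildtype. No library of either group reached the other group's range. The gene was 1.75-fold lower (log2 fold change −0.81, SE 0.14, edgeR adjusted p = 0.0420). This call was lost without labelled knockdown replicate 1, 2 or 3 and without wildtype replicate 2, 3 or 4 (adjusted p from 0.0572 to 0.118), and among the libraries with hepatocyte transcripts (−0.85, adjusted p = 0.257) or without atrial markers (−0.95, adjusted p = 0.242).

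The classical heavy chains, which carry most peptides to CD8 T cells, had large differences that did not pass over all genes. H2-D1 (chromosome 17, 35262730 to 35267499, plus strand) was at 174, 201, 229 and 257 CPM in the labelled knockdown libraries, against 417, 302, 358 and 305 CPM in wildtype (log2 fold change −0.68, SE 0.15, edgeR adjusted p = 0.0845). H2-K1 (chromosome 17, 33996017 to 34000347, minus strand) was at 135, 175, 191 and 269 CPM in the labelled knockdown libraries, against 472, 268, 442 and 261 CPM in wildtype (−0.91, SE 0.26, edgeR adjusted p = 0.186). The H2-D1 groups did not overlap, while labelled knockdown replicate 4 reached the range of wildtype replicates 2 and 4 for H2-K1. B2m, the light chain shared by class I molecules (chromosome 2, 122147686 to 122153083, plus strand), was at 196, 209, 230 and 329 CPM in the labelled knockdown libraries, against 520, 419, 551 and 370 CPM in wildtype. All 4 labelled knockdown values lay below all wildtype values, and its log2 fold change was −0.95 (SE 0.19, edgeR adjusted p = 0.0624). B2m passed without labelled knockdown replicate 4 (−1.13, adjusted p = 0.0356). By DESeq2, which called 1.62% of the 20305 genes with an adjusted p as lower, 13 of 25 class I pathway genes passed, all lower: H2-T23, H2-Q4, B2m, H2-D1, H2-K1, H2-Q1, H2-Q6, H2-Q7, H2-T22, H2-T24, Nlrc5, Tap1 and Tapbp.

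Per length of transcript, B2m was the most abundant of these, at 257 ± 68.8 FPKM (deposited fragments per kilobase, scaled to the library) in the labelled knockdown libraries and 485 ± 68.0 FPKM in wildtype (SD, n = 4 each). It was followed by H2-D1, at 76.6 ± 14.4 FPKM in the labelled knockdown libraries and 120.5 ± 16.6 FPKM in wildtype. H2-K1 was at 60.1 ± 18.7 FPKM in the labelled knockdown libraries and 109.8 ± 30.3 FPKM in wildtype, so H2-D1 and H2-K1 lay within each other's spread in both groups. H2-Q4 was at 16.0 ± 3.60 FPKM in the labelled knockdown libraries and 27.6 ± 3.64 FPKM in wildtype, and H2-T23 at 7.22 ± 1.07 FPKM in the labelled knockdown libraries and 16.6 ± 4.42 FPKM in wildtype. The 22 heavy chain rows together held 609 ± 129 CPM in the labelled knockdown libraries and 1049 ± 180 CPM in wildtype. H2-K1 and H2-D1 made up 66.2% ± 1.45 of the heavy chain FPKM in the labelled knockdown libraries and 66.4% ± 4.33 in wildtype (SD, n = 4 each), so this share differed by less than the spread between libraries.

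**Figure D2:**
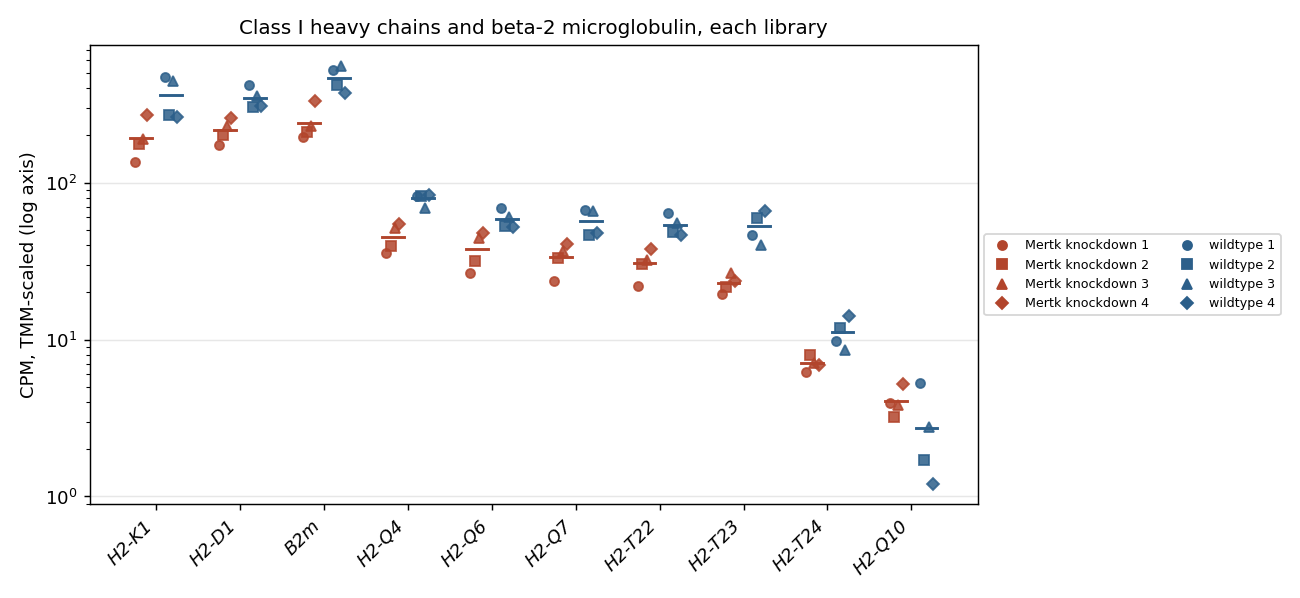
CPM on a log axis for B2m and 9 class I heavy chain genes in each library, labelled Mertk knockdown left of wildtype for each gene, with a bar at the group mean and a symbol for each replicate. The labelled knockdown libraries of H2-T23 lie at 19.6 to 26.4 CPM, below wildtype at 40.0 to 65.5 CPM, while H2-Q10 has wildtype replicate 1 at 5.27 CPM and replicates 2 to 4 at 1.21 to 2.76 CPM.

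The promoters of some of these genes hold the core of the interferon-stimulated response element, a sequence bound by factors of the IRF family. In the window from 250 bases before to 50 bases after the gene start (RefSeq, GRCm38.p6), GAAA followed after any 2 bases by another GAAA was searched on both strands. Promoters were matched for 16 of the 24 tested class I pathway genes and 6 of the 9 tested class II pathway genes. The core was found in 4 of the 16 (B2m, Erap1, H2-T22 and H2-T23), in 0 of the 6, and in 3.43% of all 32807 promoters. The windows of 70 bases around it are shown for H2-T23, which fell, and for B2m and H2-T22, whose groups did not overlap, with the core in capitals and each sequence on the strand of its gene.

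H2-T23 (chr17:36032786-36032855, minus strand): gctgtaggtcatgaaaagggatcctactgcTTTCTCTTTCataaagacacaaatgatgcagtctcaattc
B2m (chr2:122147518-122147587, plus strand): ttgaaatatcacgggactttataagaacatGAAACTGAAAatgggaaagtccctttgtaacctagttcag
H2-T22 (chr17:36042894-36042963, minus strand): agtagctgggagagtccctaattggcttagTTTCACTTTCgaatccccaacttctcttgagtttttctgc

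In H2-T23 and H2-T22 the core stood on the strand opposite to the gene, 124 and 191 bases before the RefSeq gene start. In B2m it stood on the strand of the gene, 139 bases before the RefSeq start. The deposited coordinates of H2-T23 begin further upstream, so by them its window lies within the gene. H2-Q4, the other gene that fell, had no match to this exact pattern in its window. Variants of the pattern were not searched, so genes without a match may still hold the element in another form.

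The remaining class I genes of the Q, T and M regions had log2 fold changes from −0.86 to −0.26, apart from H2-Q10, and none of them passed by edgeR. H2-T22, whose product is a ligand of some gamma-delta T cells, was at 21.96, 30.1, 32.3 and 38.0 CPM in the labelled knockdown libraries, against 64.4, 48.6, 55.5 and 46.0 CPM in wildtype (log2 fold change −0.81, SE 0.17, edgeR adjusted p = 0.0754). Its groups did not overlap. Nor did those of H2-Q1 (−0.86, adjusted p = 0.0747), H2-Q6 (−0.64, adjusted p = 0.195), H2-T24 (−0.66, adjusted p = 0.137) and H2-M3 (−0.51, adjusted p = 0.293), whose product presents peptides with a formylated methionine. H2-Q7, which encodes a Qa-2 chain, was at 23.6, 33.2, 36.5 and 40.4 CPM in the labelled knockdown libraries, against 67.0, 46.0, 65.9 and 47.9 CPM in wildtype (−0.76, SE 0.18, edgeR adjusted p = 0.123). Overlapping groups were seen for H2-Q5 (−0.52), H2-T10 (−0.26, 95% interval −0.73 to 0.21) and H2-K2 of the K region (−0.08, −0.58 to 0.41), with adjusted p from 0.485 to 0.927 by edgeR. These genes are similar copies. Of all 100-base stretches in the GENCODE M21 transcripts of a gene, 14.0% were shared with another gene for H2-Q5, 12.0% for H2-Q7, 10.8% for H2-Q6 and 8.86% for H2-T22, against 3.15% for H2-T23, 2.16% for H2-Q4, 3.59% for H2-D1 and 0.957% for H2-K1, and none for B2m, Tap1 and Nlrc5. No source used here gives how reads of shared stretches were divided, so the values of the closely similar rows are uncertain.

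H2-Q10 had another order of libraries. It encodes a class I chain secreted by the liver, and its levels were 3.92, 3.19, 3.81 and 5.21 CPM in the labelled knockdown libraries, against 5.27, 1.72, 2.76 and 1.21 CPM in wildtype. Wildtype replicate 1 was the highest library, and the 5 libraries with hepatocyte transcripts were the 5 highest. The log2 fold change was 0.56 (SE 0.41, edgeR adjusted p = 0.639), and it was −0.38 among those 5 libraries and −0.39 once the hepatocyte score was a covariate. The part of the hepatocyte transcripts in this value was not tested beyond these fits.

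Of the 9 genes of class I transcription and loading, 0 passed by edgeR, and 8 were below 0 (median −0.65), against 50.1% of all genes. At an unadjusted p under 0.05, 7 were lower, against 6.32% of all genes. For 6 of the 9 (Nlrc5, Tap1, Tap2, Tapbp, Tapbpl and Erap1) wildtype replicates 2 and 4 were the 2 highest of all libraries. This order was not counted over all genes, and the summed macrophage and fibroblast markers had it too. Nlrc5, the transactivator of class I genes (chromosome 8, 94434356 to 94527272, plus strand), was at 10.03, 10.6, 8.93 and 14.1 CPM in the labelled knockdown libraries, against 16.4, 54.3, 16.9 and 57.5 CPM in wildtype. Tap1, a subunit of the peptide transporter (chromosome 17, 34187553 to 34197225, plus strand), was at 9.61, 12.7, 16.2 and 21.4 CPM in the labelled knockdown libraries, against 26.8, 78.4, 26.3 and 96.5 CPM in wildtype. For both genes the groups did not overlap, and wildtype replicates 1 and 3 lay closer to the labelled knockdown libraries than to wildtype replicates 2 and 4. The log2 fold changes were the lowest of all members, −1.93 for Tap1 (SE 0.51, edgeR adjusted p = 0.186) and −1.73 for Nlrc5 (SE 0.47, edgeR adjusted p = 0.192), and neither passed. Tap2, the other transporter subunit, was at 20.99, 27.4, 32.4 and 28.4 CPM in the labelled knockdown libraries, against 30.5, 50.4, 33.0 and 57.5 CPM in wildtype (−0.65, SE 0.22, edgeR adjusted p = 0.254). The FPKM ratio of Tap1 to Tap2 was 0.375 ± 0.0979 in the labelled knockdown libraries and 0.847 ± 0.313 in wildtype (SD, n = 4 each), with 1.07 and 1.16 in wildtype replicates 2 and 4 and 0.606 and 0.550 in replicates 1 and 3.

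**Figure D3:**
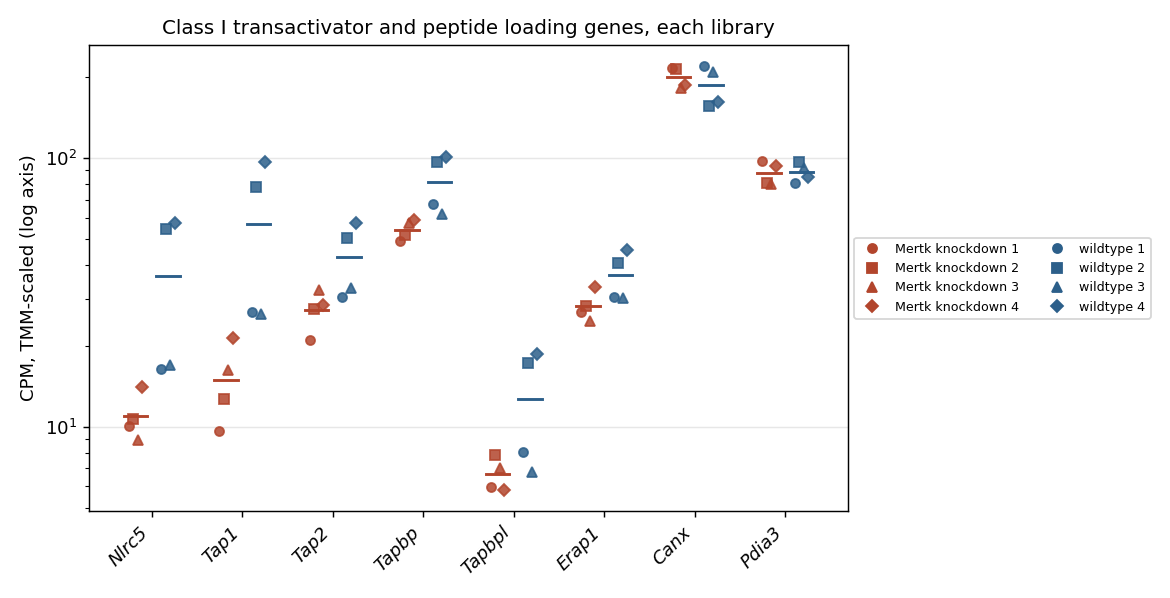
CPM on a log axis for Nlrc5 and 7 genes of peptide loading in each library, labelled Mertk knockdown left of wildtype for each gene, with a bar at the group mean. Wildtype replicates 2 and 4 (squares and diamonds) stand above the other libraries for Nlrc5 and Tap1, while Canx and Pdia3 overlap between the groups.

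Among the other loading genes, Tapbp encodes tapasin, which holds class I chains to the transporter. It was at 49.2, 51.6, 57.1 and 58.96 CPM in the labelled knockdown libraries, against 67.3, 96.5, 61.9 and 101 CPM in wildtype (log2 fold change −0.59, SE 0.16, edgeR adjusted p = 0.166), without overlap. Tapbpl, a tapasin-related editor of bound peptides, had −0.93 (SE 0.32, adjusted p = 0.278), and Erap1, the aminopeptidase that trims peptides, −0.37 (SE 0.15, adjusted p = 0.346), both with overlapping groups. The general chaperones of glycoprotein folding had values near 0. Canx, which encodes calnexin, had 0.10 (95% interval −0.19 to 0.40), and Pdia3, which encodes the disulfide isomerase ERp57, had −0.01 (−0.24 to 0.21).

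The order of the wildtype libraries differed among class I pathway genes, and how many of all genes had each order was not counted. Over all genes, wildtype replicates 1 and 3 (chi-square per degree of freedom 47.8) and 2 and 4 (92.3) were the closest wildtype pairs. The other wildtype pairs had 108 to 199. Of its 23 genes averaging at least 1 CPM, 11 had wildtype replicates 1 and 3 as the 2 highest wildtype libraries, among them H2-K1, H2-D1, B2m, H2-Q7 and H2-T22. Another 10 had replicates 2 and 4 there: Nlrc5, Tap1, Tap2, Tapbp, Tapbpl, Erap1, H2-T23, H2-T24, H2-Q4 and H2-M3. For H2-Q4 the margin was small, with wildtype replicate 2 at 82.5 CPM and replicate 1 at 81.9 CPM. The FPKM ratio of Tap1 to B2m was 0.00747 to 0.0110 in the 4 labelled knockdown libraries and wildtype replicates 1 and 3, and 0.0294 and 0.0409 in wildtype replicates 2 and 4. In the labelled knockdown group, replicate 4 was the highest library for 16 of the 23 class I genes and for 6 of the 7 class II genes at that level. This count was not made over all genes.

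Among the wildtype libraries, the marker sums of macrophages and fibroblasts were highest in replicates 2 and 4. Those of endothelial, dendritic, B, and T and natural killer cells did not have this order. The 10 macrophage markers summed to 222 to 270 CPM in the labelled knockdown libraries, against 256, 371, 254 and 391 CPM in wildtype replicates 1 to 4, so replicates 2 and 4 were again the highest. Fibroblast markers (5 listed) summed to 513 to 790 CPM in the labelled knockdown libraries, against 541, 1250.5, 505 and 837 CPM in wildtype replicates 1 to 4. Of these markers 2 of 5 were below 0, 0 were called by edgeR, and 1 was lower at an unadjusted p under 0.05, against 6.32% of all genes. Mitochondrial transcripts took 28.9% to 31.3% of counts in the labelled knockdown libraries, against 32.4%, 26.9%, 31.1% and 28.8% in wildtype replicates 1 to 4. All 10 macrophage markers were below 0 in log2 fold change, against 50.1% of all genes, and 0 passed by edgeR. At an unadjusted p under 0.05, 4 were lower, against 6.32% of all genes. The 7 endothelial markers summed to 661 to 844 CPM in the labelled knockdown libraries, against 544 to 635 CPM in wildtype. Of these 7 were above 0, 0 were called by edgeR, and 4 were higher at an unadjusted p under 0.05, against 6.11% of all genes. Markers of T and natural killer cells summed to 1.85 to 5.39 CPM in the labelled knockdown libraries and 1.43 to 7.25 CPM in wildtype. Those of B cells summed to 1.12 to 3.23 CPM in the labelled knockdown libraries and 0.852 to 1.69 CPM in wildtype, and those of dendritic cells to 22.7 to 25.3 CPM in the labelled knockdown libraries and 19.6 to 27.2 CPM in wildtype. No marker in these lists was at 0 in all libraries, and their part in the class I values was not tested. With mitochondrial genes left out before normalization, H2-T23 and H2-Q4 were again the 2 members called. In bulk heart RNA, fewer cells of a type and less RNA per cell cannot be told apart.

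**Figure D4:**
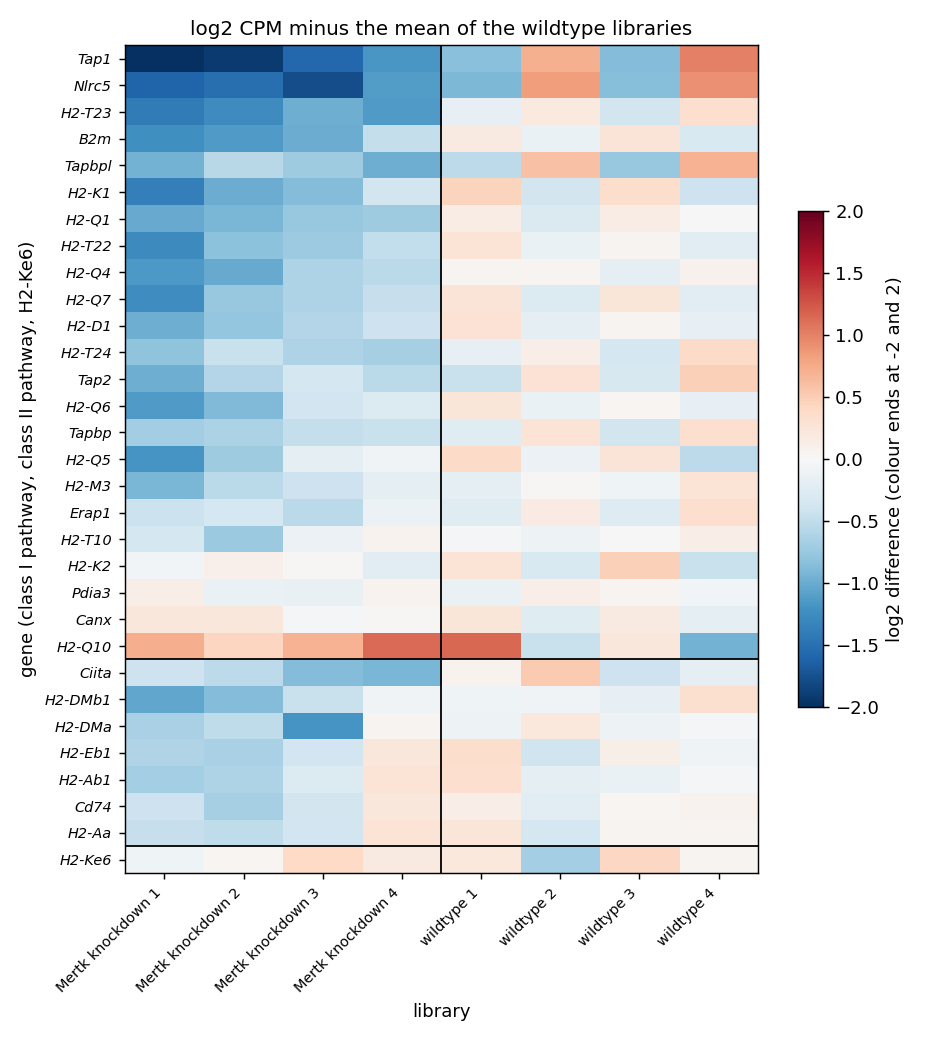
Log2 CPM of each member with a mean of at least 1 CPM, minus the mean of the wildtype libraries, for the 4 labelled Mertk knockdown libraries (left) and the 4 wildtype libraries (right), with the class I pathway above the class II pathway and H2-Ke6 in the last row. Tap1 and Nlrc5 are above the wildtype mean in wildtype replicates 2 and 4 and below it in the other 6 libraries, while H2-Aa, H2-Ab1, H2-Eb1 and Cd74 are above it in labelled knockdown replicate 4.

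No class II pathway gene passed the test. The alpha and beta chains of the I-A molecule, H2-Aa and H2-Ab1, and the beta chain of I-E, H2-Eb1, had log2 fold changes of −0.25, −0.29 and −0.34 with adjusted p from 0.588 to 0.657. H2-Aa (chromosome 17, 34282744 to 34287823, minus strand) was at 36.3, 35.0, 38.0 and 60.1 CPM in the labelled knockdown libraries, against 58.6, 39.0, 51.9 and 51.5 CPM in wildtype. Labelled knockdown replicate 4 was the highest of all 8 libraries, and the groups overlapped. Without that library the class II median was −0.52, and still 0 class II pathway genes passed by edgeR. Cd74, the invariant chain that guards the class II groove (chromosome 18, 60803848 to 60812646, plus strand), was at 82.3, 69.4, 85.7 and 129 CPM in the labelled knockdown libraries, against 120, 93.8, 113 and 116 CPM in wildtype (−0.27, SE 0.18, 95% interval −0.67 to 0.12, edgeR adjusted p = 0.588). Here too labelled knockdown replicate 4 was the highest library.

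The class II transactivator Ciita (chromosome 16, 10480059 to 10526426, plus strand) had the lowest log2 fold change of the class. It was at 3.11, 2.87, 2.26 and 2.19 CPM in the labelled knockdown libraries, against 4.35, 5.93, 3.09 and 3.67 CPM in wildtype (−0.71, SE 0.23, edgeR adjusted p = 0.246). The groups overlapped by labelled knockdown replicate 1 and wildtype replicate 3. H2-DMa and H2-DMb1 encode the DM molecule, which exchanges the invariant chain remnant for peptide. They had −0.51 (SE 0.25, adjusted p = 0.446) and −0.58 (SE 0.23, adjusted p = 0.348) by edgeR. Of the DO molecule, which restrains DM, H2-Ob was tested (0.11, SE 0.47) and H2-Oa was not, with 0 to 17 counts per library. DESeq2 and limma-voom also called 0 class II pathway genes.

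**Figure D5:**
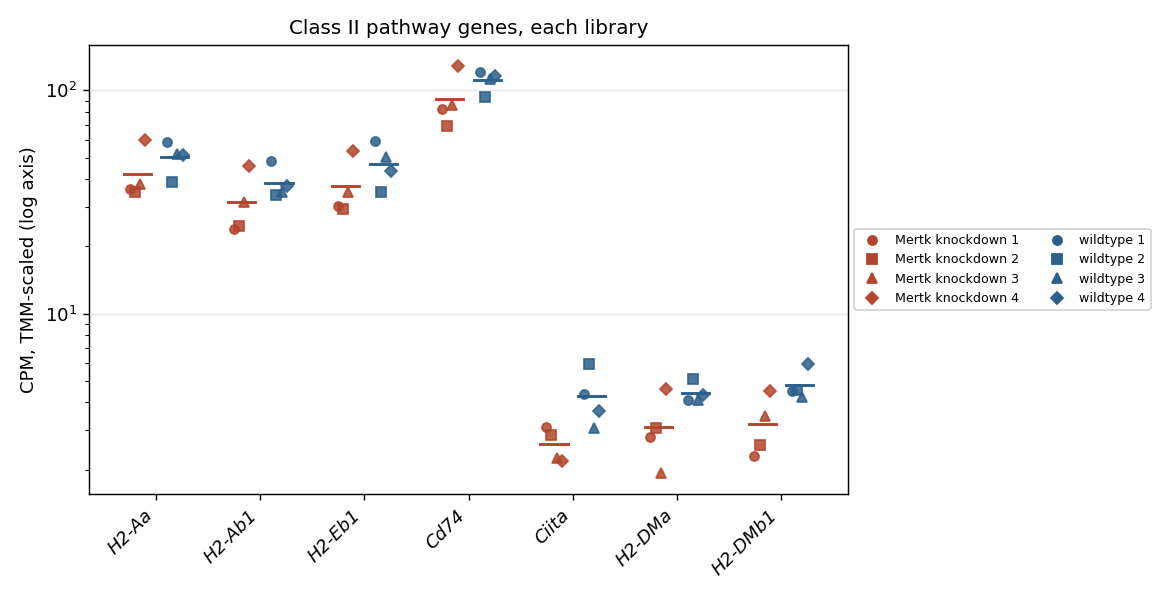
CPM on a log axis for 7 class II pathway genes in each library, labelled Mertk knockdown left of wildtype for each gene, with a bar at the group mean. The groups overlap for each gene shown, and labelled knockdown replicate 4 (diamond) is the highest library of its group for 6 of the 7, Ciita being the exception.

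Ratios among Cd74, H2-Aa and H2-Ab1 varied little, and no ratios between other class II pathway genes were formed. The FPKM ratio of Cd74 to H2-Aa was 4.89 ± 0.299 in the labelled knockdown libraries and 5.03 ± 0.338 in wildtype, and that of H2-Aa to H2-Ab1 was 0.921 ± 0.0917 in the labelled knockdown libraries and 0.885 ± 0.102 in wildtype (SD, n = 4 each), each differing by less than the spread between libraries. The FPKM ratio of the class I chain H2-K1 to the class II chain H2-Aa was 4.81, 6.45, 6.48 and 5.78 in the labelled knockdown libraries, against 10.4, 8.90, 11.03 and 6.56 in wildtype. The groups did not overlap, with wildtype replicate 4 close to the labelled knockdown libraries, and no test was made of this ratio. The FPKM ratio of the transactivators, Nlrc5 to Ciita, did overlap. It was 3.65 to 7.24 in the labelled knockdown libraries and 4.22 to 17.6 in wildtype, and was not tested either. Cd74 and H2-K1 lay within each other's spread in the labelled knockdown libraries, at 37.5 to 71.5 FPKM for Cd74 and 40.7 to 85.2 FPKM for H2-K1. In wildtype they were apart, at 52.1 to 64.8 FPKM for Cd74 and 83.5 to 144 FPKM for H2-K1.

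Promoters of both classes are bound by the enhanceosome of RFX, CREB and NF-Y factors, on which NLRC5 and CIITA act, and NF-Y binds CCAAT. On both strands of the same promoter windows, CCAAT was found in 14 of the 16 matched class I pathway genes and 6 of the 6 class II pathway genes, against 37.4% of all promoters. TGACG, the core of sites bound by CREB factors, was found in 10 of the 16 and in 1 of the 6, against 20.8% of all promoters. Windows of 90 bases are shown for the classical class I chains, H2-Q4 and 2 class II chains, on the strand of the gene, and for H2-K1 at the second of its listed starts. Capitals mark CCAAT or its reverse complement and, where present, TGACG on either strand.

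H2-K1 (chr17:34000349-34000438, minus strand): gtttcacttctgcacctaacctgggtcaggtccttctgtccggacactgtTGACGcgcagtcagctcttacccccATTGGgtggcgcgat
H2-D1 (chr17:35262943-35263032, plus strand): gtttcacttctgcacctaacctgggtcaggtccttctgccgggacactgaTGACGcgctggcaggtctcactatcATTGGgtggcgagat
H2-Q4 (chr17:35379463-35379552, plus strand): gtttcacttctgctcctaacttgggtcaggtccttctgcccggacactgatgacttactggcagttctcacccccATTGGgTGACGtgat
H2-Aa (chr17:34287857-34287946, minus strand): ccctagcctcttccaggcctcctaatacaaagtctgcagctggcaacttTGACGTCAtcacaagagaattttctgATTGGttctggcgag
H2-Eb1 (chr17:34305733-34305822, plus strand): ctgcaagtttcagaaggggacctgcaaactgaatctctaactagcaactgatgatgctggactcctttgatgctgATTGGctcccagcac

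In H2-K1 and H2-D1, TGACG stood 25 bases before the CCAAT element, in H2-Aa 26 bases before it and in H2-Q4 after it. The H2-Eb1 window held CCAAT and no exact TGACG. Variants of TGACG and the sites of RFX factors were not searched, so such sites may be present in any of these windows. By the deposited coordinates, the H2-D1 window lies within the gene. Of these genes, H2-Q4 fell and the others did not pass the test.

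Genes that prepare peptides were described from a list of 24. By edgeR 2 of them fell and 0 rose, against 0.371% lower and 0.275% higher of all genes, and the median was −0.07. Psmb8, a catalytic subunit of the immunoproteasome encoded next to Tap1 (chromosome 17, 34197721 to 34201454, plus strand), was at 8.22, 8.93, 10.98 and 13.9 CPM in the labelled knockdown libraries, against 23.2, 28.4, 23.7 and 31.6 CPM in wildtype (−1.35, SE 0.18, edgeR adjusted p = 0.0127). Psme2, a subunit of the PA28 proteasome activator, was at 16.2, 15.3, 19.4 and 20.6 CPM in the labelled knockdown libraries, against 27.5, 27.7, 28.7 and 32.8 CPM in wildtype (−0.71, SE 0.12, edgeR adjusted p = 0.0330). The groups of both genes did not overlap. Psmb9 and Psmb10, the other immunoproteasome catalytic subunits, named here after their values were seen, had −1.32 (adjusted p = 0.145) and −0.63 (adjusted p = 0.107). The Psmb8 call held without any 1 library (adjusted p from 0.00739 to 0.0444), and that of Psme2 was lost without labelled knockdown replicate 1, 2 or 3 and without wildtype replicate 3 or 4 (0.0678 to 0.0965). Among the libraries with hepatocyte transcripts, with the hepatocyte covariate and without atrial libraries, in that order, the adjusted p was 0.187, 0.227 and 0.0791 for Psmb8 and 0.354, 0.361 and 0.327 for Psme2, so both calls were lost.

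Of 17 tested genes of MHC transcription and turnover, 1 fell and 0 rose by edgeR (median −0.09). Of all genes, 0.371% fell and 0.275% rose. Marchf1, the ubiquitin ligase that removes class II from the surface, named after its values were seen, had −1.35 (SE 0.27, adjusted p = 0.0711). The enhanceosome genes Rfx5, Rfxank, Rfxap, Nfya, Nfyb, Nfyc and Creb1, also named with their values known, lay between −0.22 and 0.07, with adjusted p from 0.614 to 0.956.

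Of 8 tested class I-like molecules (14 listed, 11 in the table), 1 fell and 0 rose by edgeR (median −0.28). The shares over all genes were 0.371% lower and 0.275% higher. Hfe, which regulates iron uptake and needs B2m, was at 29.7, 27.7, 35.9 and 32.4 CPM in the labelled knockdown libraries, against 46.5, 53.3, 41.0 and 51.0 CPM in wildtype (−0.61, SE 0.11, edgeR adjusted p = 0.0466). The groups did not overlap. Its call was lost without any 1 labelled knockdown library and without wildtype replicate 2 or 4 (adjusted p from 0.0632 to 0.134), and in the hepatocyte and atrial settings (0.316 to 0.398). Among 19 tested genes of T cell recognition, 0 passed by edgeR (median −0.09). By DESeq2 1 passed, lower, against 1.62% of all genes with an adjusted p. At an unadjusted edgeR p under 0.05, 1 was lower, against 6.32% of all genes. The smallest adjusted p were those of Pirb, an inhibitory receptor for class I (−0.69, SE 0.16, adjusted p = 0.109), and Lag3, a receptor for class II (−1.10, SE 0.50, adjusted p = 0.406). Lag3 was under 1.1 CPM in each library.

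The genes between the H2- rows on chromosome 17 were examined as neighbours. Of 175 rows, 105 were tested, and the median was −0.10. Against 0.371% lower and 0.275% higher of all genes, 0 rose by edgeR and 2 fell. These were Psmb8 and C4b, a complement component, at 21.02, 23.3, 17.3 and 37.8 CPM in the labelled knockdown libraries, against 71.6, 117, 77.4 and 91.4 CPM in wildtype (−1.84, SE 0.25, edgeR adjusted p = 0.0177). The C4b call was lost without labelled knockdown replicate 1 or 2 and without wildtype replicate 4 (adjusted p from 0.0560 to 0.0701), and in the hepatocyte and atrial settings (0.0587 to 0.305). C4b has a closely similar copy in the locus, C4a (−1.83, adjusted p = 0.0825), named after its values were seen, and reads may be divided between them. H2-Ke6, a metabolic enzyme gene with an H2- symbol, had 0.09 (SE 0.21, adjusted p = 0.908), and 61.6% of its 100-base stretches were shared with an overlapping transcript, Gm20427.

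The members without enough counts for the test were H2-Q2, H2-Bl, H2-M10, H2-M9, H2-M6-ps, H2-M5, H2-M2, H2-Oa, H2-Eb2 and H2-Ea. None had more than 17 counts in a library. H2-Ea, the alpha chain of I-E, which C57BL/6 mice do not make, had 6 counts in labelled knockdown replicate 3 and 0 in the other 7 libraries. A gene with 0 counts in the shallowest library could be present at up to 0.0506 CPM, the level of 3 counts there, which covers counting error only. H2-T-ps, H2-DMb2 and H2-Ob were tested with a mean under 1 CPM, and their standard errors of 0.47 to 0.86 exceed each of the log2 fold changes of H2-DMb2 (0.19), H2-Ob (0.11) and H2-T-ps (−0.54).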

How the data were processed

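Poly(A) RNA of 4 libraries labelled Mertk knockdown and 4 wildtype libraries was sequenced as paired ends after dUTP marking of the second strand, per the labels' protocols. The authors deposited whole-number read counts and FPKM per gene for each library, per the file headers. Tools named with build mm10, per the submitters' processing notes, were HISAT2 2.2.1, StringTie 2.1.6, cutadapt 1.9, edgeR and DESeq2. Their roles, and whether counting used strand, are not given in the sources used here, so reads of overlapping genes such as Tap1 and Psmb9 may be shared.

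The members and gene lists were chosen with earlier results of these data known. The deposited counts were tested with edgeR 4.0.16 (quasi-likelihood F test, robust, two-sided, TMM, filterByExpr) in R 4.3.3 over all 17787 genes that passed the filter, and calls needed an adjusted p (Benjamini-Hochberg) under 0.05. Adjusted p-values in the text are from this test unless another tool is named. The SE was the log2 fold change divided by the square root of F. The script was tested on simulated counts. Members with a mean of at least 1 CPM, called members, called genes or else the 2 smallest p of each list, called neighbours and Mertk were named by rule. The called gene of the list of MHC transcription and turnover is not reported here. Chi-square per degree of freedom between libraries of a group was 37.9 to 199, so none was a duplicate. Alternatives were other normalization factors and filters, DESeq2 1.42.0, limma 3.58.1 (voom on counts, and log2(FPKM + 1) or log2(FPKM + 0.1), where folds of low genes are understated), leaving out each library, a replicate block, summed copies, no mitochondrial genes, hepatocyte markers and, added after seeing the data, atrial markers. Promoter sequences are from RefSeq (GRCm38.p6), the same build as mm10.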

Additional observations from a re-analysis of the deposited data

Results flagged for a closer look

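In 2 of the 78 groups of 4 libraries searched, 1 library stood apart from the other 3 by Dixon's criterion on the ratio of its gap to the range, which chance alone exceeds in about 1 of 20 groups. For H2-Aa, labelled knockdown replicate 4 was at 60.1 CPM and the other labelled knockdown libraries at 35.0 to 38.0 CPM (ratio 0.880). The same library held 606 CPM of atrial markers, whose part in this value was not tested. For H2-Q4, wildtype replicate 3 was at 68.8 CPM and the other wildtype libraries at 81.9 to 83.9 CPM (ratio 0.865).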

How the results depend on the processing

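The class I median stayed between −0.81 and −0.42 and the class II median between −0.56 and −0.19 under the alternatives run, and 0 class II pathway genes passed in any of them. Class I pathway genes called, 2 as reported, numbered 4 without a filter, 13 by DESeq2, 1 with log2(FPKM + 1) or log2(FPKM + 0.1), 0 with log2(FPKM + 1) and no filter, 1 to 3 when 1 library was left out, and 0 in the 5 libraries with hepatocyte markers, with the hepatocyte score as a covariate and in the 5 libraries without atrial markers. The fit to the libraries with hepatocyte markers holds 1 wildtype library, assumed to vary like the labelled knockdown ones. All genes called, 115 as reported, numbered 583 by DESeq2, 70 with log2(FPKM + 1), 69 with log2(FPKM + 0.1), 21 with log2(FPKM + 1) and no filter, 44 to 265 when 1 library was left out, 42 and 16 in the hepatocyte settings and 6 without atrial libraries. Without wildtype replicate 1, 37.7% of calls were lower, against 57.4% as reported. Replicate numbers did not pair the libraries (correlations of same-numbered deviations from −0.00646 to 0.181). With them as a replicate block, 24 genes passed, 0 of the class I pathway (H2-T23 0.0528, H2-Q4 0.112 as adjusted p), 1 of antigen processing and 0 class I-like.

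DESeq2 called 1.62% of all genes with an adjusted p as lower. By DESeq2, 7 neighbours in the locus, 5 antigen processing, 2 transcription and turnover and 1 T cell recognition gene passed, counted in either direction. With FPKM these numbered 1 for antigen processing, and 0 without the filter, 0 for transcription and turnover and 0 for class I-like genes; neighbours numbered 0 without the filter. No count filter left 0 of transcription and turnover, and upper quartile factors left 0 class I-like genes. In the 2 hepatocyte settings and without atrial libraries, 0 neighbours and 0 genes of antigen processing, transcription and turnover or the class I-like list passed. Leaving out 1 library gave 1 to 2 neighbours, 1 to 2 antigen processing genes, 0 to 2 of transcription and turnover and 0 to 2 class I-like genes.

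Some values changed sign, none of them called as reported or in those fits. When 1 library was left out, H2-K2 ran from −0.21 to 0.0925, Pdia3 from −0.0639 to 0.0385 and H2-Ke6 from −0.0825 to 0.24. H2-K2 was 0.0199 without atrial libraries. Pdia3 was 0.00414 with upper quartile factors, 0.0067 with log2(FPKM + 1), with or without the filter, and 0.00694 with log2(FPKM + 0.1). In the hepatocyte-marker libraries and with the covariate, in that order, Pdia3 was 0.13 and 0.11, H2-Q10 −0.38 and −0.39 (0.56 as reported), Canx −0.12 and −0.16, and H2-Ke6 −0.0578 and −0.0974. Lag3, −1.10 as reported, was 0.00125 in the hepatocyte-marker libraries. Depth limits statements on the 13 members under 1 CPM.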
